A study of Mus musculus with 36 samples.

Results

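The oligoadenylate synthetase (OAS) genes Oas1a, Oas2 and Oas3 and the OAS-like (OASL) genes Oasl1 and Oasl2 were followed in RNA newly made after interferon was added to NIH-3T3 cells, a fibroblast line long established from mouse embryos and here the model of every group. They were chosen by symbol, as every probe set whose annotation gave one of these 5 symbols and no other. Each gene had 1 such probe set (1424775_at for Oas1a, 1425065_at for Oas2, 1425374_at for Oas3, 1424339_at for Oasl1 and 1453196_a_at for Oasl2), so the set holds 5 of the 45101 probe sets and 5 of the 18194 genes named by a single symbol. New RNA was tagged with 4-thiouridine (4sU), a uridine analogue that transcripts take up only during the labelling period, and was read on 36 Affymetrix arrays, with 3 arrays in each of 12 groups. At time 0 every culture received fresh medium, which carried IFN alpha at 100 U/ml, IFN gamma at 100 U/ml, or no interferon (mock), and mock cells received 4sU in the same way. Under each of those 3 conditions 4sU was present from 0 to 30 min, from 30 to 60 min or from 150 to 180 min at 500 µM, or from 0 to 60 min at 200 µM. Arrays of a group are numbered in the labels, which do not say whether they came from separate cultures. P-values below therefore measure only the spread between arrays, which may be technical.

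OAS proteins are sensors of double-stranded RNA, a sign of viral infection. When bound to it, the active members join ATP into short adenylate chains (2-5A), second messengers of an antiviral response. The genes are classical interferon-stimulated genes. IFN alpha, a type I interferon, acts mainly through the factor ISGF3, which holds Stat2 and Irf9 and binds interferon-stimulated response elements, while IFN gamma, the type II interferon, acts mainly at gamma-activated sites and through Irf1. Among the genes studied, Oas1a, Oas2 and Oas3 encode synthetases, the mouse Oasl1 protein lacks synthetase activity and is known in mice as a brake on translation of Irf7 mRNA, and mouse Oasl2 carries ubiquitin-like domains and keeps synthetase activity.

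All 5 genes matched the RefSeq gene table by gene ID and all lie on mouse chromosome 5. Their promoter windows are shown first as a description, and no link between these sequences and the expression values below was tested. RefSeq windows (build GRCm38.p6) of 250 bases before and 50 bases after the annotated start were at hand for 4 of the 5 genes, Oas2 being the other. Each was searched on both strands for the core of the interferon-stimulated response element, spelled GAAANNGAAA, and for the core of the gamma-activated site, spelled TTCNNNGAA, which reads the same on both strands. The first occurred in 1131 of all 32851 such windows (3.44%) and the second in 2726 (8.3%). The sequences run 5′ to 3′ on the strand of the gene, and capitals mark the letters that matched either motif. They lie at chr5:120907476-120907775 (minus strand) for Oas1a, chr5:120777610-120777909 (minus strand) for Oas3, chr5:114922990-114923289 (plus strand) for Oasl1 and chr5:114896684-114896983 (plus strand) for Oasl2.
Oas1a: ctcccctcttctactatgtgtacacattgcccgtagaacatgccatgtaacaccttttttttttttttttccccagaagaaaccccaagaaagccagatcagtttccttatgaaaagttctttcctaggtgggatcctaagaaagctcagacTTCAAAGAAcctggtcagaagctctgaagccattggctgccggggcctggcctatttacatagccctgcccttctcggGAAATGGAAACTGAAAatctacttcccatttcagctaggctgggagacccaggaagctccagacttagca
Oas3: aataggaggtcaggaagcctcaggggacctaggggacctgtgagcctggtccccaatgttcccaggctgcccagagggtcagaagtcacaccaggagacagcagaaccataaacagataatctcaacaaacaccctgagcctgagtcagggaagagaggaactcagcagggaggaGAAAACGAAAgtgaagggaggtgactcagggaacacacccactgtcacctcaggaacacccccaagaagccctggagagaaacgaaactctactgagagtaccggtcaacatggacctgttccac
Oasl1: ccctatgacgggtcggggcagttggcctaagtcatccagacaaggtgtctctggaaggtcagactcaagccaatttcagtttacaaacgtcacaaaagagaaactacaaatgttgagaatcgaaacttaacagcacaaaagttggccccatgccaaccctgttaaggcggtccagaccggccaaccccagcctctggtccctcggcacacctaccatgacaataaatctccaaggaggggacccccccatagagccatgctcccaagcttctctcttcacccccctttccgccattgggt
Oasl2: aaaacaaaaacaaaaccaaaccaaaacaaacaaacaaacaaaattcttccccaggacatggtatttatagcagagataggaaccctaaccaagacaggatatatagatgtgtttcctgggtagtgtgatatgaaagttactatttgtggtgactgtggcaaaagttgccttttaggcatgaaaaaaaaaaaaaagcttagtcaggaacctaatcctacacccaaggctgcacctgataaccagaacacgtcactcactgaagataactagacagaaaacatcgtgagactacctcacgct
The Oas1a window held 2 overlapping matches to the response element core, starting 20 and 14 bases before the start site, and 1 match to the gamma-activated site core, starting 98 bases before it. Oas3 had 1 match to the response element core, 75 bases before its start. Neither core was spelled in the windows of Oasl1 and Oasl2, which says only that these exact letters do not occur in them.

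Values are the deposited log2 expression values (made by the authors with GCRMA), on which a step of 1 is a doubling of the signal. A level of one probe set is not comparable with that of another, so levels are compared only within a gene. Values at or below about log2 4 were treated as near background, and a gene was tested where its probe set passed 4 on at least 3 arrays. All 8 fibroblast markers were tested, with a median mean level of 12.26 on the log2 scale, against medians of 3.07, 2.79 and 2.32 for macrophage, epithelial and endothelial markers, whose defining genes lay near background except Cd14 (6.17). Arrays of a group correlated at 0.91 to 0.995 and no array duplicated another. One array stood apart: on mock array 1 of the 0-60 min window the 3′ end of Gapdh, a sign of RNA integrity, read 2.67 above the 5′ end on the log2 scale, against -0.57 to 0.73 on the other 35 arrays. The IFN alpha differences of the tested OAS and OASL genes from mock in that window, and the IFN gamma difference of Oasl2, are therefore given with and without it, while counts over gene lists and over all genes include it.

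Of the 5 genes, 4 could be tested. Oas1a passed log2 4 on 19 arrays (10 with IFN alpha, 6 with IFN gamma and 3 mock), Oasl2 on 24 (12, 10 and 2 in the same order), Oas2 on 6 (3 with IFN alpha and 3 with IFN gamma) and Oasl1 on 3 (all with IFN alpha). Oas3 passed on 0. Oas2 and Oasl1 entered the test only through the interferon arrays in which they were high, so their being called somewhere is partly built into the filter, and counts of called genes below describe them without supporting a claim about the family. A gene is called where limma's Benjamini-Hochberg adjusted p over 9549 genes is under 0.05, and errors beside differences are standard errors of that fit.

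**Figure D1:**
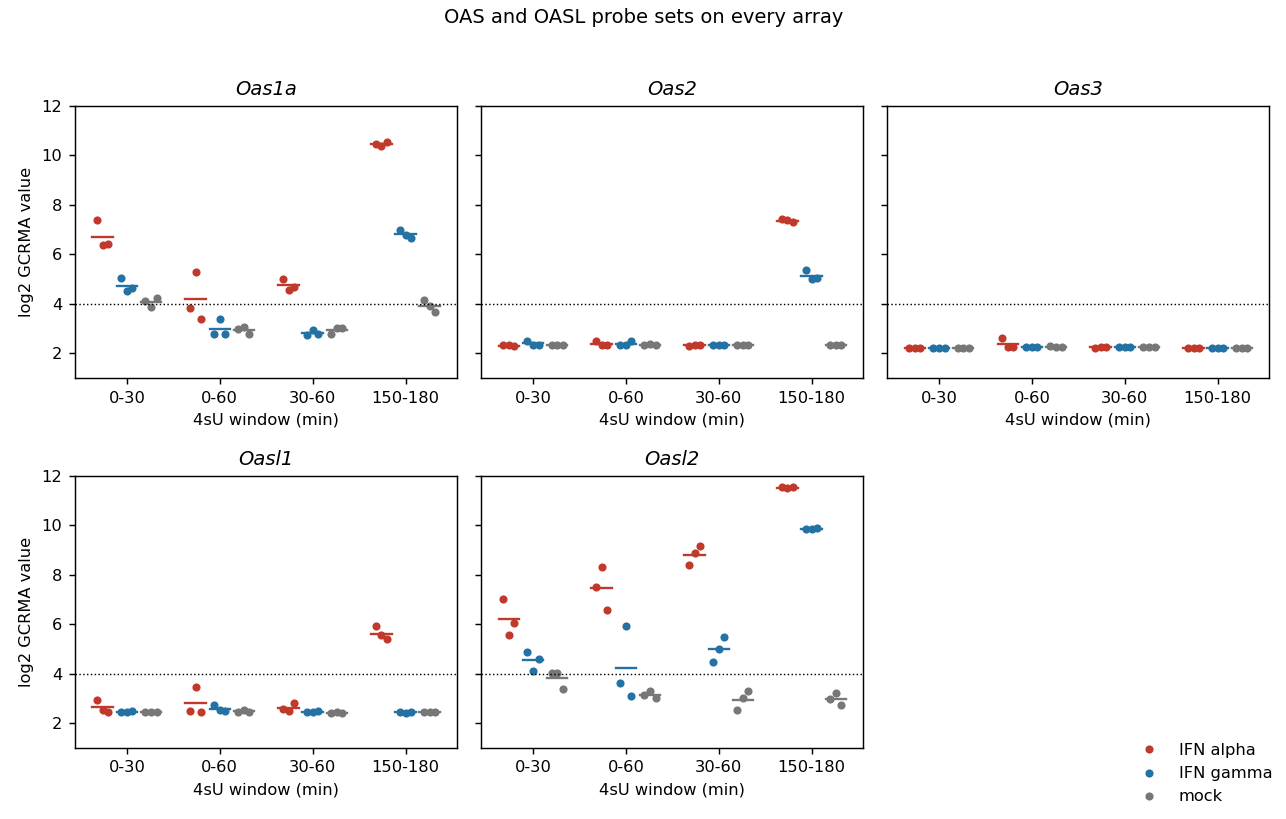
Log2 GCRMA value (vertical axis) of the probe sets of the 5 OAS and OASL genes on each of the 36 arrays, by 4sU window in minutes (horizontal axis). Points are arrays, short lines are group means of 3 arrays, and the dotted line marks log2 4. Oasl2 and Oas1a are above mock with IFN alpha in the first window, Oas2 and Oasl1 leave the background only at 150-180 min, and Oas3 stays near 2.2.

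Oas1a showed the earliest rise of the 3 synthetase genes studied. In the first 30 min it read 7.36, 6.35 and 6.40 (log2, arrays 1 to 3) with IFN alpha, 5.04, 4.49 and 4.65 with IFN gamma, and 4.11, 3.86 and 4.21 in mock cells. The 3 groups did not overlap. With IFN alpha the gene rose by 2.64 ± 0.30 on the log2 scale over mock, a 6.24-fold difference (limma, adjusted p = 3.9e-07). The IFN gamma difference of 0.67 ± 0.30 was not called (adjusted p = 1.0; 95% interval 0.06 to 1.27 before adjustment). Since the arrays read RNA of whole cultures, more responding cells and more new RNA per cell cannot be told apart, here and below.

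At 30-60 min Oas1a had lower values than in the first window under all 3 conditions. It read 4.99, 4.54 and 4.69 with IFN alpha, 2.73, 2.93 and 2.79 with IFN gamma, and 2.78, 3.02 and 3.03 in mock cells. IFN alpha arrays lay above both other sets, while IFN gamma and mock arrays, all below log2 4, overlapped. The rise over mock with IFN alpha was 1.79 ± 0.30 (adjusted p = 7.4e-05), and the IFN gamma difference was -0.12 ± 0.30 (adjusted p = 0.95).

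Labelling over the whole first hour at the lower 4sU dose gave Oas1a values of 3.84, 5.29 and 3.38 with IFN alpha, 2.78, 3.39 and 2.79 with IFN gamma, and 2.96, 3.04 and 2.77 in mock cells. The IFN alpha arrays lay above all mock arrays, with array 2 well above its mates, but reached into the IFN gamma range. The difference of 1.25 ± 0.30 from mock was called (adjusted p = 0.014), and stayed called at 1.27 ± 0.33 without the mock array that stood apart (adjusted p = 0.0367). It was lost without IFN alpha array 2 (0.69, adjusted p = 0.24), with the window's own arrays as the only ones fitted (1.25, adjusted p = 0.814) and when 16 was added to the linear values (0.58, adjusted p = 0.133).

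By 150-180 min Oas1a had its highest levels, 10.44, 10.37 and 10.53 with IFN alpha, 6.98, 6.76 and 6.66 with IFN gamma, and 4.15, 3.91 and 3.67 in mock cells. The groups were far apart relative to their spread. The rise over mock was 6.53 ± 0.30 with IFN alpha, or 92.6-fold (limma, adjusted p = 1.2e-17), and 2.89 ± 0.30 with IFN gamma, or 7.4-fold (adjusted p = 5.6e-09). With mock arrays at about log2 4 or below, these too are folds over near-background signal. Oas1a has a near-identical relative, Oas1g, for which no probe set carried a single symbol, and whether the Oas1a probe set also reads Oas1g RNA was not tested.

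Oas2, the synthetase with a doubled core domain, was near background until the last window. Over the first 3 windows its 27 arrays lay between 2.27 and 2.50 on the log2 scale whatever the condition. At 150-180 min it read 7.42, 7.36 and 7.28 with IFN alpha, 5.35, 4.99 and 5.02 with IFN gamma, and 2.32, 2.32 and 2.33 in mock cells. No groups overlapped there. The differences from mock were 5.03 ± 0.11 with IFN alpha (32.7-fold, adjusted p = 7.6e-26) and 2.80 ± 0.11 with IFN gamma (6.96-fold, adjusted p = 2.5e-19). As the mock arrays were near background, these are folds over background, not over a mock level that was measured. Before the last window the Oas2 difference from mock with IFN alpha was largest at 0-60 min, 0.05 ± 0.11, with a 95% interval of -0.18 to 0.28 (0.05 ± 0.13 without the mock array that stood apart).

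Oas3, the longest synthetase of the family, gave no signal above background on this probe set. Its values lay between 2.19 and 2.28 on every array except IFN alpha array 1 of the 0-60 min window, which read 2.63. In the last window, where Oas1a and Oas2 were highest, Oas3 averaged 2.21 ± 0.02 with IFN alpha, 2.20 ± 0.01 with IFN gamma and 2.22 ± 0.01 in mock cells (SD, n = 3 arrays each). It failed the filter, and when every one of 18193 genes was tested without a filter it was called in 0 of the 19 comparisons (2 at unadjusted p under 0.05), its largest difference from mock being 0.12 ± 0.05 with IFN alpha at 0-60 min (limma, adjusted p = 0.337, unadjusted p = 0.0339). One probe set near background does not tell an untranscribed gene from one that these probes read poorly, and this was not tested. The promoter window of Oas3, printed with the others, held 1 match to the response element core.

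Oasl1, the member without synthetase activity, was above background in a single group. At 150-180 min it read 5.91, 5.55 and 5.38 with IFN alpha, 2.45, 2.42 and 2.45 with IFN gamma, and 2.45, 2.46 and 2.45 in mock cells. The IFN alpha arrays stood clear of the rest, and IFN gamma and mock arrays overlapped. IFN alpha raised it by 3.16 ± 0.18 over mock (8.95-fold over background, adjusted p = 1.9e-15). The IFN gamma difference was -0.01 ± 0.18 (limma, adjusted p = 0.99), with a 95% interval of -0.37 to 0.35. Both of these groups read near background, so the interval does not bound a change that lies below what the probe set can read.

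Earlier, some IFN alpha arrays of Oasl1 were a little above the rest without passing log2 4. The values were 2.94, 2.53 and 2.44 at 0-30 min, 2.49, 3.46 and 2.46 at 0-60 min, and 2.56, 2.47 and 2.80 at 30-60 min with IFN alpha. IFN gamma arrays ranged from 2.44 to 2.71 over these windows, and mock arrays from 2.39 to 2.54. None of the 3 early differences from mock was called, the largest being 0.32 ± 0.18 at 0-60 min (adjusted p = 0.41), where array 2 was the high one, and 0.31 ± 0.20 there without the mock array that stood apart (adjusted p = 1).

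Oasl2, which has ubiquitin-like domains, was above mock with IFN alpha in every window and with IFN gamma at 30-60 and 150-180 min. In the first 30 min it read 7.03, 5.57 and 6.05 with IFN alpha, 4.88, 4.10 and 4.60 with IFN gamma, and 4.03, 4.03 and 3.38 in mock cells. The groups did not overlap. IFN alpha raised Oasl2 by 2.41 ± 0.45 over mock, or 5.3-fold (adjusted p = 0.0034), a call that was lost without IFN alpha array 1 (2.00, adjusted p = 0.0994) or without mock array 3 (2.19, adjusted p = 0.0547). The IFN gamma difference of 0.72 ± 0.45 was not called (adjusted p = 1.0; 95% interval -0.21 to 1.64).

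Over the whole first hour Oasl2 read 7.51, 8.30 and 6.57 with IFN alpha, 3.63, 5.91 and 3.08 with IFN gamma, and 3.14, 3.31 and 3.00 in mock cells. IFN alpha arrays lay above all others, whereas the IFN gamma arrays were widely spread, with array 2 high and array 3 inside the mock range. The IFN alpha difference was 4.31 ± 0.45 (19.8-fold, adjusted p = 2.6e-08), and 4.30 ± 0.51 without the mock array that stood apart (adjusted p = 3.47e-07). The IFN gamma difference, 1.05 ± 0.45, was not called (adjusted p = 0.16, and 0.341 without that mock array). It was called with the replicate number as a block (adjusted p = 0.0164) and without IFN gamma array 3 (1.62, adjusted p = 0.0312).

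At 30-60 min Oasl2 read 8.37, 8.86 and 9.15 with IFN alpha, 4.45, 5.01 and 5.48 with IFN gamma, and 2.51, 3.00 and 3.29 in mock cells. All 3 groups were separate. Both interferons raised it over mock, IFN alpha by 5.86 ± 0.45 (58.1-fold, adjusted p = 1.5e-11) and IFN gamma by 2.05 ± 0.45 (4.13-fold, adjusted p = 0.0028). Adding 16 to the linear values reduced the IFN gamma difference to 1.01, which was not called (adjusted p = 0.0568).

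The last window brought Oasl2 to 11.52, 11.49 and 11.52 with IFN alpha, 9.82, 9.85 and 9.89 with IFN gamma, and 2.96, 3.22 and 2.73 in mock cells. Arrays within each interferon group differed by under 0.1. The difference from mock was 8.54 ± 0.45 with IFN alpha (372-fold, adjusted p = 6.7e-16) and 6.88 ± 0.45 with IFN gamma (118-fold, adjusted p = 1.7e-13). Mock arrays were below log2 4 in all windows except for 2 arrays at 0-30 min, so these are folds over near-background signal.

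**Figure D2:**
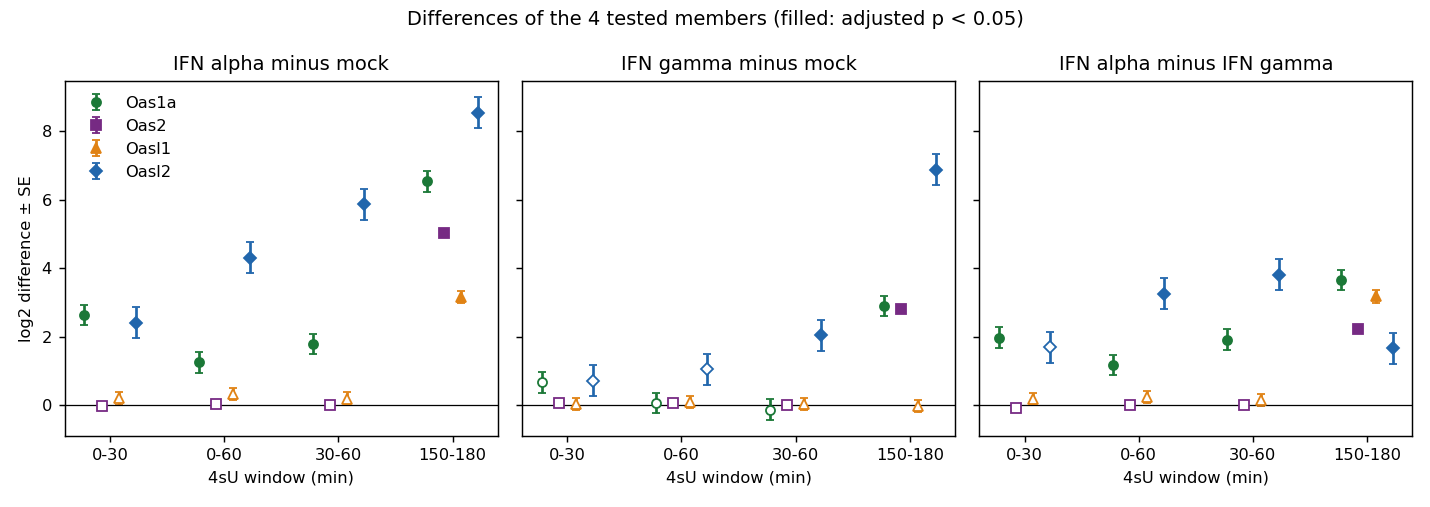
Log2 difference with its standard error (vertical axis) of the 4 tested genes in each 4sU window in minutes (horizontal axis), for IFN alpha minus mock, IFN gamma minus mock and IFN alpha minus IFN gamma. Filled symbols have an adjusted p under 0.05. With IFN alpha Oasl2 lies at 2.41 in the 0-30 min window and at 8.54 in the last, Oas1a at 2.64 and 6.53, and with IFN gamma Oasl1 lies near 0 throughout.

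Counted over the set, IFN alpha arrays were called higher than mock for 2 of 5 genes at 0-30 min (Oas1a and Oasl2), when 0.377% of all tested genes were called higher. The same 2 were called at 0-60 min (1.91% of all genes) and at 30-60 min (2.4%), and 4 were called at 150-180 min (2.58%). With IFN gamma, 0 of 5 were called higher at 0-30 min (0.754% of all genes) and at 0-60 min (3.83%), 1 at 30-60 min (Oasl2; 3.82%) and 3 at 150-180 min (Oas1a, Oas2 and Oasl2; 4.37%). In the 2 windows with no gene called, limma gave 1 gene each at an unadjusted p under 0.05, Oas1a at 0-30 min (unadjusted p = 0.031) and Oasl2 at 0-60 min (unadjusted p = 0.027). The median difference of the 4 tested genes at 150-180 min was 5.78 with IFN alpha and 2.84 with IFN gamma, against medians of -0.10 with either interferon over all tested genes. Oas2 and Oasl1 passed the filter only through interferon arrays of that window. Oas3, which differed by -0.005 and -0.012 when tested without the filter, is left out. The medians of the set are therefore partly built into the filter and are a description only. With the replicate number as a block, the shares of all genes called higher were larger, 0.482%, 3.76%, 3.68% and 3.54% with IFN alpha and 1.12%, 8.59%, 5.75% and 6.37% with IFN gamma at 0-30, 0-60, 30-60 and 150-180 min, and the members' counts were as above except for Oasl2 with IFN gamma at 0-60 min.

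IFN alpha and IFN gamma were also set directly against each other, which leaves the shared mock arrays out of the difference, though not out of its standard error. IFN alpha arrays were higher for 1 of 5 genes at 0-30 min (0.189% of all tested genes), for 2 at 0-60 min (2.36%), for 2 at 30-60 min (2.97%) and for 4 at 150-180 min (1.9%), and in 0 cases was IFN gamma called higher. Oas1a differed by 1.98 ± 0.30 at 0-30 min (3.93-fold, adjusted p = 8.6e-05), by 1.92 ± 0.30 at 30-60 min (adjusted p = 1.9e-05) and by 3.65 ± 0.30 at 150-180 min (12.5-fold, adjusted p = 4.6e-11). Its 0-60 min difference of 1.18 ± 0.30 (adjusted p = 0.013) was lost without IFN alpha array 2 (0.62, adjusted p = 0.232), without IFN gamma array 1 or 3 (1.08 each, adjusted p = 0.0718 and 0.0795), with 16 added to the linear values (0.56, adjusted p = 0.101) and with the window's own arrays as the only ones fitted (1.18, adjusted p = 0.483).

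For Oas2 the difference between the interferons was 2.23 ± 0.11 at 150-180 min (4.69-fold, adjusted p = 3.1e-16). For Oasl1 it was 3.17 ± 0.18 (9.03-fold over background, adjusted p = 4.8e-15). The Oasl2 difference had a lower value in the last window than at 30-60 min, a change that was not tested: 3.25 ± 0.45 at 0-60 min (adjusted p = 7.2e-06, and 0.0618 with the window's own arrays as the only ones fitted), 3.81 ± 0.45 at 30-60 min (14.1-fold, adjusted p = 1.9e-07) and 1.66 ± 0.45 at 150-180 min (3.16-fold, adjusted p = 0.024). That last call was lost under 1 of 10 other settings, without the filter on low values (limma, adjusted p = 0.0662). The lowest adjusted p under those settings was 2.1e-06. It was also lost in each of the 6 fits that left out 1 of its own arrays, the highest adjusted p being 0.0804. The value itself stayed between 1.64 and 1.68. The IFN alpha and IFN gamma arrays did not overlap there, with SDs of 0.02 and 0.03, and the ± 0.45 pools the spread of all 12 groups. At 0-30 min the Oasl2 difference of 1.69 ± 0.45 was not called (adjusted p = 0.098) but was with the replicate number as a block (adjusted p = 0.00157), with array weights (1.42, adjusted p = 0.00624) and with the window's own arrays as the only ones fitted (adjusted p = 0.0292).

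The change of each response between windows was tested as a difference of differences, interferon minus mock in the later window less the same in the earlier one. From 0-30 to 30-60 min the IFN alpha response of Oasl2 grew by 3.45 ± 0.64 (adjusted p = 0.0012), the only one of 5 called, against 1.27% of all genes called higher. That of Oas1a changed by -0.85 ± 0.42 and was not called (adjusted p = 1.0, unadjusted p = 0.051). It was called at -1.03 when 16 was added to the linear values (adjusted p = 0.0391). With IFN gamma 0 of 5 were called over the same step (1.27% of all genes called higher), Oasl2 changing by 1.33 ± 0.64 (adjusted p = 0.73, unadjusted p = 0.047) and Oas1a by -0.79 ± 0.42 (adjusted p = 0.84).

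From 30-60 to 150-180 min the IFN alpha response grew for 4 of 5 genes, against 0.429% of all genes. Oas2 gained 5.02 ± 0.16 (adjusted p = 2.9e-21), Oas1a 4.74 ± 0.42 (adjusted p = 1.1e-09), Oasl1 2.97 ± 0.25 (adjusted p = 4.1e-10) and Oasl2 2.68 ± 0.64 (adjusted p = 0.049). The last of these was close to the threshold and was lost under 5 of 10 other settings and in 10 of the 13 fits with 1 array left out. With IFN gamma 3 of 5 grew, against 1.2% of all genes: Oasl2 by 4.83 ± 0.64 (adjusted p = 6.1e-06), Oas1a by 3.01 ± 0.42 (adjusted p = 1.3e-05) and Oas2 by 2.79 ± 0.16 (adjusted p = 2e-14). Oasl1 changed by -0.06 ± 0.25 (adjusted p = 0.99).

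Oas1a also moved in mock cells, which received fresh medium alone. It averaged 2.94 ± 0.14 at 30-60 min against 4.06 ± 0.18 at 0-30 min (SD, n = 3 arrays each), a fall of 1.12 ± 0.30 on the log2 scale (adjusted p = 0.0017), and was higher by 0.97 ± 0.30 at 150-180 min, with 3.91 ± 0.24, than at 30-60 min (adjusted p = 0.0052), a call lost when 16 was added to the linear values (0.39, adjusted p = 0.0657). Many genes did the same: 51.8% of all tested genes were lower at 30-60 than at 0-30 min, with a median of -0.52, and 53.4% were higher at 150-180 than at 30-60 min, with a median of 0.55. Oas1a was likewise lower at 0-60 than at 0-30 min, by 1.14 ± 0.30 (adjusted p = 0.0032; 23.3% of all genes called lower), with a difference of -1.16 ± 0.33 without the mock array that stood apart (adjusted p = 0.00667), windows that also differ in length and 4sU dose. The other tested genes were called in 0 of these 3 mock comparisons. Oas2 and Oasl1 read near background in mock cells, so a fall could not be seen. Oasl2 changed by -0.88 ± 0.45 from 0-30 to 30-60 min (limma, adjusted p = 0.095). That change was called with the arrays of the compared windows as the only ones fitted (adjusted p = 0.0348). The mock levels of Oas1a and Oasl2 also lay at about log2 4 or below. In interferon-treated cells the Oas1a level at 30-60 less that at 0-30 min was -1.97 with IFN alpha and -1.91 with IFN gamma, beside -1.12 in mock cells and all-gene medians of -0.51, -0.53 and -0.52 in the same order.

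Ordered over the 12 groups, Oas1a was highest with IFN alpha at 150-180 min (10.45 ± 0.08, SD, n = 3 arrays), followed by IFN gamma at 150-180 min (6.80 ± 0.16) and IFN alpha at 0-30 min (6.70 ± 0.57). The last 2 overlapped. The next groups, from IFN alpha at 30-60 min down to mock at 150-180 min, overlapped their neighbours, and the IFN gamma and mock groups of the 0-60 and 30-60 min windows formed the low end, between 2.82 and 2.99. Oasl2 had IFN alpha at 150-180 min on top (11.51 ± 0.02), then IFN gamma at 150-180 min (9.85 ± 0.03) and IFN alpha at 30-60 min (8.79 ± 0.40), in 3 steps without overlap. For Oas2 the order was IFN alpha at 150-180 min (7.35 ± 0.07), IFN gamma at 150-180 min (5.12 ± 0.20) and then the remaining 10 groups, which overlapped one another in sequence. For Oasl1, IFN alpha at 150-180 min (5.61 ± 0.27) stood alone above the others.

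The genes most alike in pattern were ranked by Pearson's r over the 12 group means, as a description that shares the same arrays and carries no test. Nearest to Oas1a were Apobec3 (r = 0.961), Tent5a (0.932) and Dapp1 (0.927). Sp110 (0.993), Uba7 (0.973) and Bst2 (0.973) were nearest to Oas2. Slfn4 (0.992), Ifi209 (0.985) and Apod (0.964) were nearest to Oasl1, and Xaf1 (0.985), Slfn8 (0.980) and Parp12 (0.973) to Oasl2. The r between the 4 tested members lay between 0.651 (Oasl1 with Oasl2) and 0.867 (Oas1a with Oas2). Averaged over the 4 tested members, Tent5a (0.913), Bst2 (0.902), Sp110 (0.882), Ifih1 (0.881) and Sp100 (0.879) came first.

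The mouse has further Oas1 genes, of which 5 of the 7 listed had a probe set of their own. Only Oas1b, which the RefSeq table lists as a transcribed pseudogene and which is known from mouse strains that resist flaviviruses, passed the filter. At 150-180 min it averaged 7.68 ± 0.17 with IFN alpha, 5.19 ± 0.40 with IFN gamma and 2.62 ± 0.10 in mock cells (SD, n = 3 arrays each). The rise over mock was 5.07 ± 0.30 with IFN alpha (adjusted p = 1.2e-14) and 2.58 ± 0.30 with IFN gamma (adjusted p = 1.1e-07). It was called with IFN alpha from the first window (1.40 ± 0.30, limma adjusted p = 0.019), as Oas1a and Oasl2 were, but near background. Its arrays there read 4.74, 3.37 and 3.95 with IFN alpha and 2.56, 2.72 and 2.59 in mock cells. Only array 1 with IFN alpha passed log2 4. With IFN gamma it was not called before the last window (0.17 to 0.19 in the 3 earlier windows).

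The other Oas1 probe sets stayed under log2 4 on all arrays. Oas1c, whose promoter window held 2 matches to the response element core, read 2.74, 3.32 and 2.88 with IFN alpha at 150-180 min, against 2.45 to 2.48 with IFN gamma and 2.45 to 2.46 in mock cells. Those 3 arrays lay above the rest of their window, still under the filter and untested. Oas1e reached 3.36 at most, Oas1h 2.82 and Oas1f 2.26, and a probe set shared by Oas1e and Oas1d lay between 2.32 and 2.79.

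**Figure D3:**
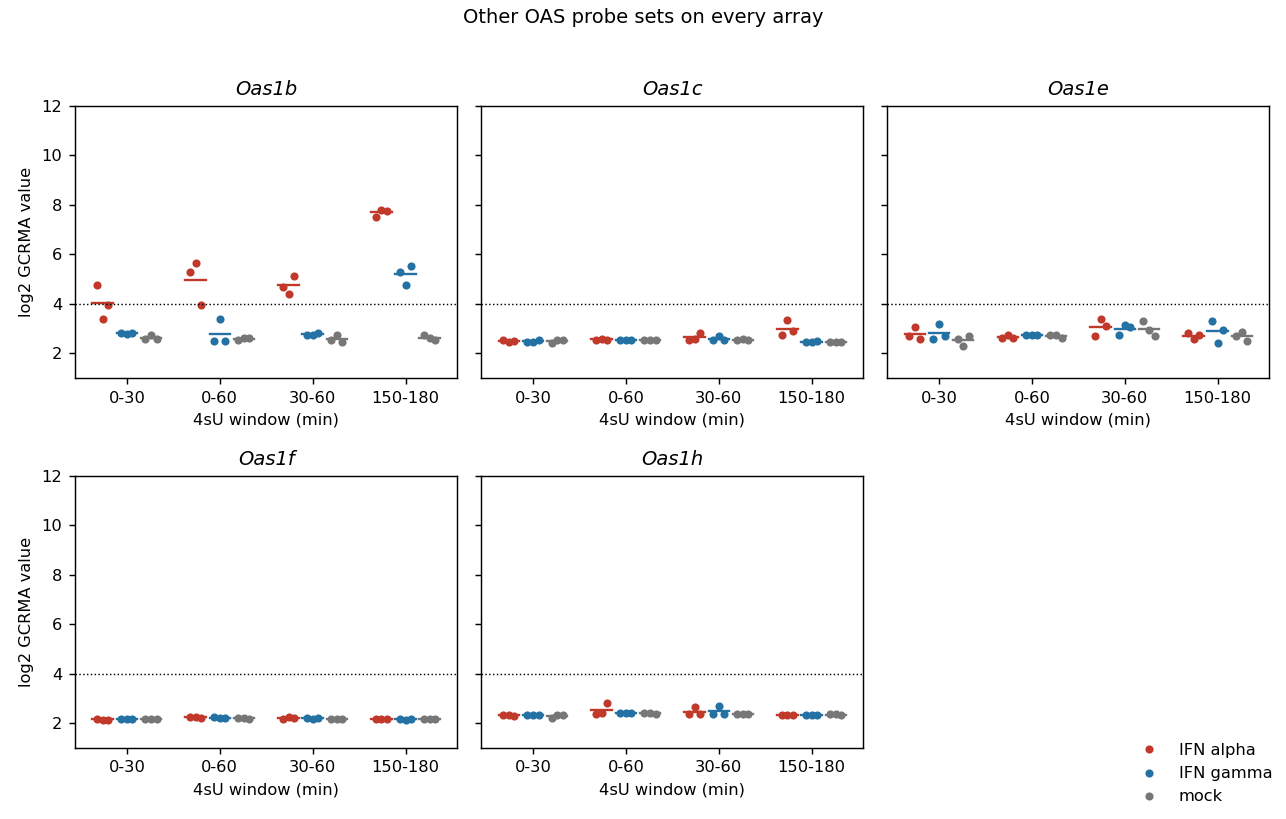
Log2 GCRMA value (vertical axis) of 5 further Oas1 probe sets on each of the 36 arrays, by 4sU window in minutes (horizontal axis). Points are arrays, short lines are means of 3 arrays, and the dotted line marks log2 4. Oas1b is the one that leaves the background, and the IFN alpha arrays of Oas1c at 150-180 min reach 3.32.

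Downstream of the synthetases, Pde12 degrades 2-5A and Abce1 restrains its action. Of the genes listed for 2-5A action and turnover, Abce1 and Pde12 were tested, and limma called them in 0 of the 12 comparisons within a window that involve interferon (0 also at unadjusted p under 0.05). At 150-180 min Abce1 differed from mock by 0.05 ± 0.12 with IFN alpha and by -0.01 ± 0.12 with IFN gamma (adjusted p = 0.95 and 0.98), and Pde12 by -0.09 ± 0.19 and -0.16 ± 0.19 (adjusted p = 0.94 and 0.77). Akap7 reached log2 4.23 at most and was not tested, and Enpp1 was not analysed here.

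Other proteins that bind double-stranded RNA or related nucleic acids rose beside the OAS genes. With IFN alpha 1 of 7 was called higher at 0-30 min, 5 at 0-60 min, 5 at 30-60 min and 7 at 150-180 min, when 0.377%, 1.91%, 2.4% and 2.58% of all tested genes were. With IFN gamma the counts were 0, 2, 2 and 6, beside 0.754%, 3.83%, 3.82% and 4.37% of all tested genes, and IFN alpha exceeded IFN gamma for 1, 5, 5 and 6, beside 0.189%, 2.36%, 2.97% and 1.9%. The first to be called was Adar, the RNA-editing adenosine deaminase, at 1.28 ± 0.17 with IFN alpha at 0-30 min (adjusted p = 1.6e-05), a window in which Eif2ak2, the kinase PKR, had 0.51 ± 0.20 (adjusted p = 1.0). At 150-180 min Ddx58, which encodes the sensor RIG-I, was higher by 4.91 ± 0.27 with IFN alpha and by 2.86 ± 0.27 with IFN gamma (adjusted p = 1.7e-15 and 1.2e-09), and Eif2ak2 by 4.09 ± 0.20 and 1.88 ± 0.20 (adjusted p = 7.3e-17 and 1.1e-08). Dhx58, a regulator of the RIG-I-like sensors, had in that last window a rise of 4.04 ± 0.30 with IFN alpha (adjusted p = 2.1e-12) and an uncalled difference of 0.52 ± 0.30 with IFN gamma (adjusted p = 0.47), and the interferons differed by 3.51 ± 0.30 (adjusted p = 1.2e-10). The median difference of the 7 at 150-180 min was 4.04 with IFN alpha and 1.88 with IFN gamma, beside -0.10 over all genes with either.

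Of the listed ISGF3 genes and interferon regulatory factors, 4 were tested (Stat2, Irf9, Irf1 and Irf7). With IFN alpha 3 were called higher at 0-30 min and all 4 in each later window, and with IFN gamma 2, 3, 3 and 4, beside the same all-gene shares of 0.377% to 2.58% and 0.754% to 4.37%. Irf9, the DNA-binding part of ISGF3, rose early with both, by 2.81 ± 0.17 with IFN alpha and 2.78 ± 0.17 with IFN gamma at 0-30 min (adjusted p = 1.2e-12 and 2.2e-13), and was called different between the interferons in 0 of the 4 windows, with differences of 0.03, 0.49, 0.50 and 0.33 ± 0.17 at 0-30, 0-60, 30-60 and 150-180 min (adjusted p = 1.0, 0.14, 0.11 and 0.66; unadjusted p = 0.0085 at 0-60 and 0.0074 at 30-60 min). Irf7, the mRNA that Oasl1 is known to restrain, was higher with IFN alpha than with IFN gamma in every window, by 1.72 ± 0.28 at 0-30 min and 2.73 ± 0.28 at 150-180 min (adjusted p = 0.00034 and 1.1e-08). Irf1 went the other way, lower with IFN alpha than with IFN gamma by -2.98 ± 0.19 and -3.91 ± 0.19 in the same 2 windows (adjusted p = 1.3e-12 and 1.9e-16).

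Among 7 interferon receptor and Janus kinase genes, 0 were called by limma with IFN alpha in any window, with 4 of 28 tests at an unadjusted p under 0.05 (Ifnar2, Jak1 and Jak2). With IFN gamma Ifnar2, a chain of the type I receptor, was called in all windows but 0-30 min and was 1.22 ± 0.20 higher than mock at 150-180 min (adjusted p = 3.8e-05). The genes that flank the OAS clusters on chromosome 5 showed no such response. Of the 3 nearest other protein-coding genes on each side, Ptpn11 and Rpl6 beside the Oas cluster and Ankrd13a, 2210016L21Rik and Sppl3 beside the Oasl genes were tested, and limma called them in 0 of the same 12 comparisons (at unadjusted p under 0.05, 0 on the Oas side and 1 on the Oasl side, Ankrd13a). Their median difference from mock at 150-180 min was -0.09 and -0.22 with IFN alpha for the Oas and the Oasl side, and -0.10 and -0.27 with IFN gamma, beside -0.10 over all genes with either.

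**Figure D4:**
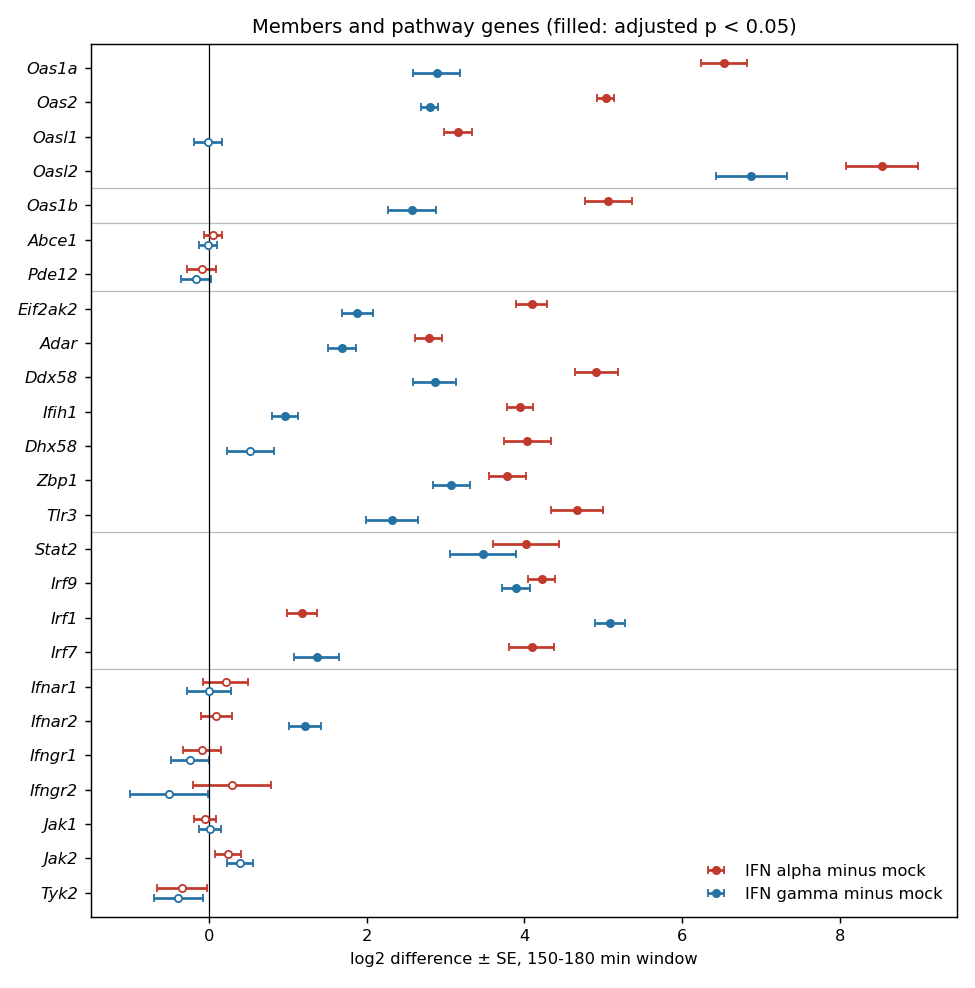
Log2 difference from mock with its standard error (horizontal axis) at 150-180 min for the 4 tested OAS and OASL genes and, below the grey lines, Oas1b, 2-5A turnover genes, double-stranded RNA proteins, ISGF3 and IRF genes, and receptors and kinases. Red is IFN alpha and blue IFN gamma, and filled points have an adjusted p under 0.05. Oasl2 lies farthest right with 8.54 and 6.88, and for Irf1 (1.17 with IFN alpha, 5.08 with IFN gamma) and Ifnar2 (0.09 and 1.22) the IFN gamma point lies beyond the IFN alpha point.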

How the data were processed

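The labelled RNA of 12 groups, 3 arrays each, was measured on 36 Affymetrix arrays. The deposited table holds log2 values that the authors made with GCRMA, per the submitters' processing notes; the version of GCRMA is not given in the sources used here. They were used without a further transformation. Of 45101 probe sets, 34945 had 1 gene symbol in the annotation, 932 several and 9160 none, and 64 array controls were dropped. A probe set was kept above log2 4 on at least 3 arrays, and the one with the highest mean stood for its gene where several were kept (9549 genes). Group means of all 36 arrays were fitted with limma 3.58.1 in R 4.3.3 (lmFit, eBayes with an intensity trend; 24 residual and 6.83 prior degrees of freedom) and 19 contrasts were tested two-sided, with Benjamini-Hochberg adjustment over the 9549 genes. The fit was tested on simulated data with independent arrays and a single spread per gene. That test does not cover arrays that move together or groups of unequal spread. Arrays have no counts; their number limits the precision.

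The 5 genes, the gene lists and the rule for named genes were chosen with earlier results of these data known. Named genes are all 5 genes, the members of fixed lists, 3 protein-coding neighbours on each side of each cluster, and the 3 genes most alike to each tested gene, plus the 5 most alike on average over the 4 that were tested. Comparison of protein sequences was planned and was not analysed here. The replicate numbers, which the main fit leaves out, were checked for pairing. With them as a block, Oasl2 with IFN gamma minus mock at 0-60 min had a standard error of 0.30, against 0.45. Deviations from group means of arrays with the same number correlated above 0.1 for 9 of 9 pairs in the 0-30, 0-60 and 30-60 min windows and for 7 of 9 at 150-180 min, so by the data, not by the labels, the numbers pair the arrays in the first 3 windows. Other settings were testing without the filter or with one at log2 6, adding 16 before taking logs, a common median, quantile normalization, all kept probe sets, the arrays of the compared windows alone, no intensity trend, array weights, the replicate number as a block, and each array left out in turn. Leaving out mock array 1 of the 0-60 min window in all comparisons was added after seeing the data.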

Additional observations from a re-analysis of the deposited data

Results flagged for a closer look

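The responses below differed between labelling windows by the test of the difference itself, limma's contrast of interferon minus mock in the later window less the same contrast in the earlier one. With IFN alpha, the log2 response of Oasl2 at 30-60 min exceeded that at 0-30 min by 3.45. From 30-60 to 150-180 min the IFN alpha response was larger by 4.74 for Oas1a, 5.02 for Oas2, 2.97 for Oasl1 and 2.68 for Oasl2, the last with an adjusted p of 0.049. With IFN gamma the same step gave 3.01 for Oas1a, 2.79 for Oas2 and 4.83 for Oasl2. Mock levels of all tested genes also moved over the step from 30-60 to 150-180 min, by a median of 0.55. The contrast subtracts mock within each window, so a shift drops out only as far as the mock arrays of the same gene carry it. In mock cells that step was 0.97 for Oas1a, but 0.006 for Oas2, 0.04 for Oasl1 and 0.04 for Oasl2. The mock arrays of the latter genes read near background, so little was subtracted for them. Over all tested genes the median change of the response was -0.05 with IFN alpha and -0.03 with IFN gamma. Whether a part of the shift remained in the values of these genes was not tested.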

How the results depend on the processing

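Over the 10 other settings, 324 of 337 values of called differences stayed called and 13 were lost, with 0 reversed; of 404 uncalled values, 387 stayed uncalled with the same sign, 6 became called and 11 changed sign while uncalled. With 1 array left out, 261 of 283 called values stayed called, 22 were lost, and 1 of 333 uncalled values became called. The calls of Oas1a, Oas2, Oasl1 and Oasl2 against mock at 150-180 min held under every setting that tested them; the filter at log2 6 drops Oasl1. The number of OAS and OASL genes called moved by over 1.5 times as follows. Adding 16 before the log left 1 for IFN alpha minus mock at 0-60 min, 0 for IFN gamma minus mock at 30-60 min, 1 for IFN alpha minus IFN gamma at 0-60 min, 2 for the IFN alpha response at 30-60 minus 0-30 min and 0 for mock at 150-180 minus 30-60 min. Fitting only the arrays of the windows compared gave 1 for IFN alpha minus mock at 0-60 min, 2 for IFN alpha minus IFN gamma at 0-30 min, 0 for the same at 0-60 min and 2 for mock at 30-60 minus 0-30 min. Array weights gave 2 for IFN alpha minus IFN gamma at 0-30 min. The replicate block gave 2 there and 1 for IFN gamma minus mock at 0-60 min, both through Oasl2 (adjusted p = 0.00157 and 0.0164), and changed no other call. The filter at log2 6 gave 2 for the IFN alpha response at 150-180 minus 30-60 min. With 1 array left out, the count ranged from 1 to 2 for IFN alpha minus mock at 0-30 and at 0-60 min and for IFN alpha minus IFN gamma at 0-60 min, and from 0 to 1 for IFN gamma minus mock at 0-60 min. Smaller moves, from 4 to 3 genes, came through Oasl2 for IFN alpha minus IFN gamma at 150-180 min (no filter, and without any 1 array of its groups) and for the IFN alpha response at 150-180 minus 30-60 min (no filter, quantile normalization, all probe sets, no intensity trend, and 10 of 13 fits with 1 array left out). The filter at log2 6, which drops Oasl1, gave 3 for IFN alpha minus mock and IFN alpha minus IFN gamma at 150-180 min. Leaving out mock array 1 of the 0-60 min window changed no call in any of the 19 comparisons.

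Signs that turned were all of uncalled values. A common median gave -0.025 for Oas2, IFN alpha minus mock at 30-60 min, -0.022 for IFN gamma minus mock there (quantile normalization -0.00030) and -0.0038 for IFN alpha minus IFN gamma. Oasl1 turned to 0.24 for the IFN alpha response at 30-60 minus 0-30 min with array weights and to -0.0028 for the IFN gamma response with a common median. For mock, Oasl2 gave -0.081 at 150-180 minus 30-60 min with array weights, and at 0-60 minus 0-30 min Oas2 gave -0.042 and -0.053 and Oasl1 -0.026 and -0.018 with quantile normalization and a common median. With 1 array left out, the ranges that crossed 0 were -0.14 to 0.17 for Oas1a, IFN gamma minus mock at 0-60 min; -0.0072 to 0.080 for Oas2 and -0.012 to 0.49 for Oasl1, IFN alpha minus mock at 0-60 min; -0.062 to 0.045 for Oas2 and -0.100 to 0.40 for Oasl1, IFN alpha minus IFN gamma at 0-60 min; -0.0058 to 0.014 for Oas2 at 30-60 min; -0.098 to 0.15 for Oasl1, IFN alpha response at 30-60 minus 0-30 min; and -0.17 to 0.22 for Oasl2, mock at 150-180 minus 30-60 min. The cause was not tested. Signal over background limits Oas2, Oas3 and Oasl1 in the first 3 windows, where they read near background. In the last window it also limits Oas3 in every group, Oas2 in mock cells, and Oasl1 in mock and IFN gamma cells. Oas1a and Oasl2 are limited too, as their mock arrays read at about log2 4 or below in every window. The same holds for the IFN gamma arrays of Oas1a at 0-60 and 30-60 min.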
